A study of Mus musculus with 6 samples.

Results

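Retinoid binding, synthesis and receptor genes were followed in cultured mouse lung fibroblasts on 6 expression arrays. The group holds 9 genes out of 22180 measured, namely the intracellular retinoic acid binding proteins Crabp1 and Crabp2, the retinol carrier Rbp4 and its receptor Stra6, the retinaldehyde dehydrogenases Aldh1a1, Aldh1a2 and Aldh1a3, and the retinoic acid receptors Rara and Rarb. The genes were taken by name and each had 1 probe set. They were selected on their log2 differences between the 4OHT and vehicle arrays, that is with the values of this same comparison in view, so the differences between the groups given for them are a description and carry no test of their own. All cells came from lungs of adult mice of mixed strain that carried CreERT2, a tamoxifen-inducible Cre recombinase, together with R26R-SmoM2, a Cre-dependent allele of constitutively active Smoothened. 3 wells were cultured with 1 µg/ml 4-hydroxytamoxifen (4OHT) for 48 h, and 3 wells with vehicle. The wells were split from isolated cells of 1 genotype number, nothing in the labels says that they came from separate animals, and the spread between wells may therefore be technical. Both groups carried both alleles, so the drug, Cre activity and SmoM2 cannot be told apart.

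Retinol is carried in blood by RBP4, enters some cells through STRA6, is oxidised reversibly to retinaldehyde by retinol and alcohol dehydrogenases, and is then oxidised irreversibly to retinoic acid by the ALDH1A enzymes. Retinoic acid binds CRABP1 and CRABP2 in the cytosol, is passed by CRABP2 to nuclear receptors of the RAR family, which act on DNA as dimers with RXR, and is degraded by CYP26 enzymes. In the lung, retinoic acid made in the mesenchyme and mesothelium is needed for the bud to form and for alveoli to develop, and some lung fibroblasts store retinoids.

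Rarb is the textbook gene induced by retinoic acid through its own receptors, and its start region is printed because, of the 15 RefSeq windows searched, it was the one that held a receptor element of the kind looked for. The windows covered 7 of the genes, and those of Crabp2 and Aldh1a3 were not searched. The window of Aldh1a2 is printed beside it as an example of the windows, also found for other genes of the group, that held none of the letters searched. Each window runs from 250 bases before to 50 bases after a RefSeq transcript start, on build GRCm38.p6, and is written in the direction of the gene. Capitals mark a direct repeat of the receptor hexamer spaced by 5 bases, called DR5.
Rarb, chr14:16575427-16575726, minus strand: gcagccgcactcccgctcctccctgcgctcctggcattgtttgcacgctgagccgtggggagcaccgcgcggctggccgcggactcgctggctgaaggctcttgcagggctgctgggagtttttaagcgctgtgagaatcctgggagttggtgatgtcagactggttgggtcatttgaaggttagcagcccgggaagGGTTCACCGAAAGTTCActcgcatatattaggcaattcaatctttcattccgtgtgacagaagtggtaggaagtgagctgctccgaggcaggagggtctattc
Aldh1a2, chr9:71215539-71215838, plus strand: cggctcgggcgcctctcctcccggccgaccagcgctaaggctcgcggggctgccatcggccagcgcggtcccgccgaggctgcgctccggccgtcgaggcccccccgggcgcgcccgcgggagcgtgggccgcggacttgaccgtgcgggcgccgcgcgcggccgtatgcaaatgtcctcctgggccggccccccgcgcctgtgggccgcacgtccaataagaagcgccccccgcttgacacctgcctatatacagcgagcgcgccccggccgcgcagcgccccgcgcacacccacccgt

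The hexamer was searched on both strands as AGGTCA, the variant AGTTCA, the variant GGGTCA and the variant GGTTCA, alone and as direct repeats spaced by 1, 2 or 5 bases, and a repeat also counts as hexamers. The Rarb repeat lay from 53 to 37 bases before the start. Of all 32851 RefSeq windows of the same length, 32 (0.0974%) held DR5, 73 (0.222%) held the repeat spaced by 1 base and 88 (0.268%) the repeat spaced by 2 bases. A single hexamer was common, in 43.7% of all windows. It stood in 6 of the 15 windows of these genes, those being 1 of Stra6, 2 of Rara, 1 of Rarb, 1 of Aldh1a1 and 1 of Rbp4. The letters GACCACCCA, the consensus of Gli transcription factors, which were searched after the values had been seen, stood in none of the 15 windows and in 0.253% of all windows. The Aldh1a2 window had a GC content of 78.0% and the Rarb window 57.7%, against a median of 52.7% over all windows. These matches describe letters in the reference sequence and show nothing about binding in these cells.

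The values are log2 expression per probe set, so 1 unit is a 2-fold difference, and log2 fold changes are 4OHT minus vehicle. Genes were called at an adjusted p under 0.05 by limma over all genes. 2662 of 22180 genes (12.0%) were called, 1193 higher (5.38%) and 1469 lower (6.62%), and the median log2 fold change of all genes was -0.01. Arrays correlated at 0.9974 to 0.9981 within a group and at 0.9947 to 0.9958 between groups, taken across genes, and genes are no independent replicates. Gli1, the transcriptional target most used to read hedgehog activity, rose by 0.35 (SE 0.064), and that call was lost without vehicle replicate 1, 2 or 3 (adjusted p 0.0538, 0.0541 and 0.0543). Its values, 6.43 to 6.94 over all wells, lay below the median level of all genes (7.46), where RMA compresses differences. Ptch1, a further target, had a log2 fold change of 0.08 and Smo one of -0.10, and neither was called. The labelled cell type was checked with 10 fibroblast markers, which averaged 12.60 to 12.62 in the 4OHT arrays and 12.68 to 12.70 in the vehicle arrays. That check does not show that the RNA came from fibroblasts alone. The mesothelial marker Upk1b averaged 13.56 in 4OHT wells and 13.49 in vehicle wells, Upk3b 12.69 and 13.10, and Msln 12.41 and 12.12. The other mesothelial markers searched lay lower on the scale.

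Within the retinoid group, the clearest difference was a higher level of Crabp2 beside lower levels of all 3 retinaldehyde dehydrogenase genes, while Rbp4, Stra6 and Rara lay close to their vehicle levels. 4 of the 9 genes were called, Crabp2 higher and Aldh1a1, Aldh1a2 and Aldh1a3 lower, against 12.0% of all genes. In 7 of the 9 genes the 3 values of one group all lay beyond those of the other, against 32.7% of all genes. Nothing is read from these counts, since the genes were proposed with this comparison known. Their median log2 fold change was -0.07, and the SD within a group lay between 0.01 and 0.16, against a median SD over all genes of 0.072 in 4OHT wells and 0.074 in vehicle wells.

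**Figure D1:**
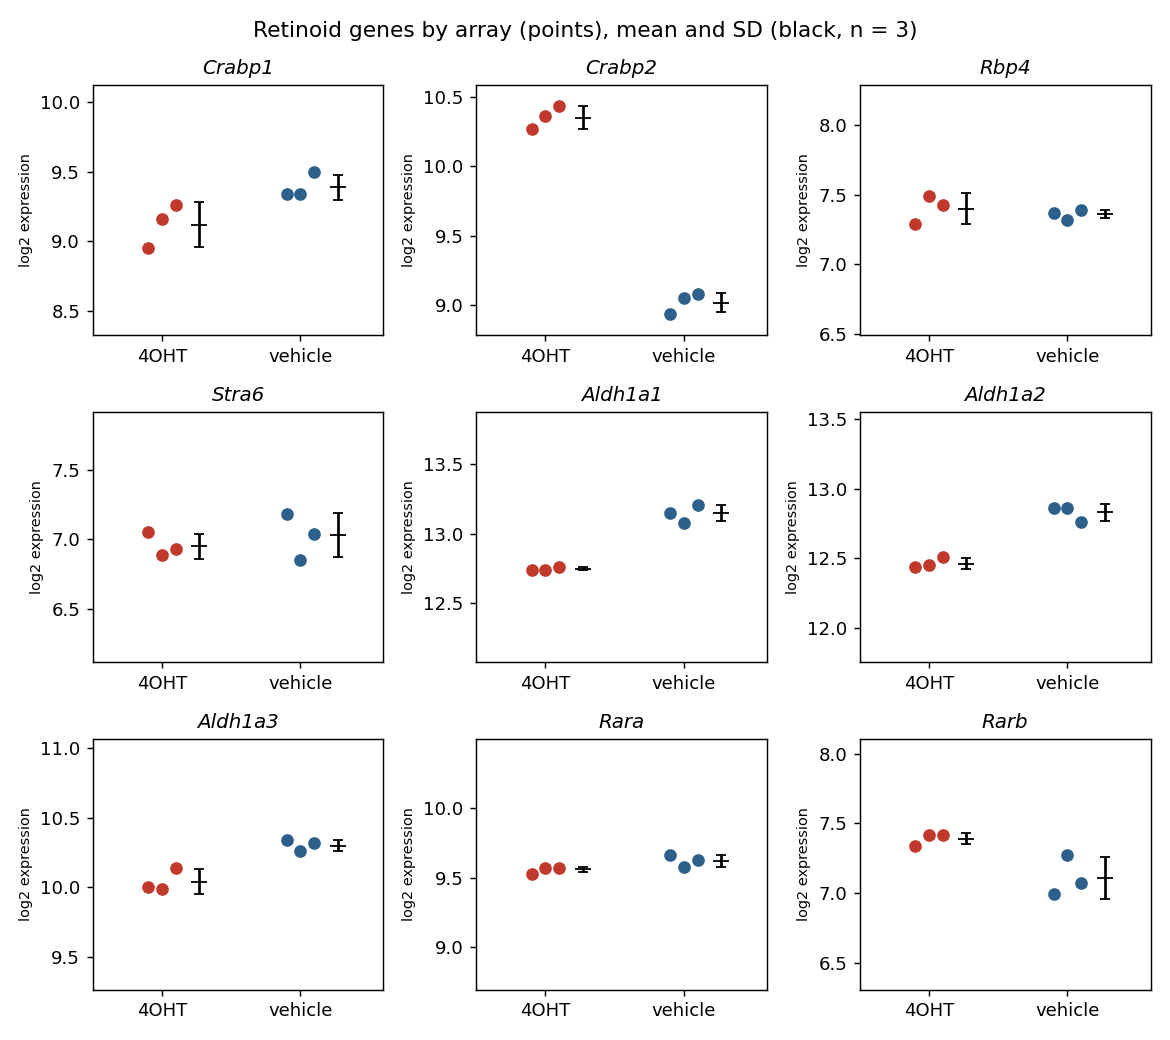
Log2 expression of the 9 retinoid genes (vertical axes, all spanning the same range of log2 units) in the 3 4OHT wells (red) and the 3 vehicle wells (blue), with the mean and SD of each group in black. Crabp2 is higher in every 4OHT well, the 3 Aldh1a genes are lower in every 4OHT well, and the groups of Rbp4 and Stra6 overlap.

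Crabp2, which carries retinoic acid to the nuclear receptors, had log2 expression of 10.27, 10.36 and 10.43 in the 4OHT wells, against 8.94, 9.05 and 9.08 in the vehicle wells. The groups were separated by a gap of 1.19, many times the spread within either. The mean was 10.35 ± 0.08 in 4OHT wells and 9.02 ± 0.07 in vehicle wells (SD, n = 3 each), a 2.52-fold difference (log2 fold change 1.33, SE 0.062, 95% interval 1.19 to 1.48). It ranked 12 from the highest among the log2 fold changes of the 22180 genes, and it stayed between 1.29 and 1.38 when any 1 array was left out. The genes whose profile over the 6 arrays lay nearest to that of Crabp2, each profile centred on its own mean, were Insig1, Star and Adamtsl5, with root mean square differences of 0.0588, 0.0721 and 0.0854 log2 units. Their own log2 fold changes were 1.29, 1.35 and 1.19.

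Crabp1, the paralogue that holds retinoic acid in the cytosol, did not share that difference. Its log2 expression was 8.95, 9.16 and 9.26 in the 4OHT wells, against 9.34, 9.34 and 9.50 in the vehicle wells. All 4OHT values lay below all vehicle values, by a gap of 0.08 that was smaller than the SD of either group (0.16 in 4OHT wells and 0.09 in vehicle wells). The log2 fold change was -0.27 (SE 0.091, 95% interval -0.49 to -0.05), opposite in sign to that of Crabp2 and with an interval that did not reach it. Crabp1 was not called, and its adjusted p was 0.0379 among genes above the median level and 0.0327 with eBayes set to trend and robust. Meox2 was the gene with the nearest profile, at a root mean square difference of 0.0208.

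Rbp4, the retinol carrier, and Stra6, the membrane receptor that takes retinol from it, showed no separation of the groups. Rbp4 had 7.29, 7.49 and 7.43 in the 4OHT wells, against 7.37, 7.32 and 7.39 in the vehicle wells. The log2 fold change of Rbp4 was 0.04, with a 95% interval from -0.11 to 0.19. Stra6 had 7.05, 6.89 and 6.93 in the 4OHT wells, against 7.18, 6.85 and 7.04 in the vehicle wells. Its log2 fold change was -0.07, with a 95% interval from -0.29 to 0.14. Both intervals leave room for small differences in either direction, and both genes lay below the median level of all genes (7.46), where RMA compresses differences.

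The 3 retinaldehyde dehydrogenase genes, whose products carry out the last step of retinoic acid synthesis, were lower together, by 1.20-fold to 1.32-fold. Aldh1a1, Aldh1a2 and Aldh1a3 ranked 616, 757 and 1454 from the lowest among the log2 fold changes of all genes. All 3 lay within the central 95% of all genes (-0.42 to 0.39). Aldh1a1 had 12.74, 12.74 and 12.76 in the 4OHT wells, against 13.15, 13.08 and 13.21 in the vehicle wells. The 4OHT wells were nearly identical, and the gap to the lowest vehicle well was 0.32. The log2 level of Aldh1a1 fell by 0.40 (SE 0.048, 95% interval -0.51 to -0.29).

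Aldh1a2, the main enzyme of the embryo and of mesothelium, had 12.44, 12.45 and 12.51 in the 4OHT wells, against 12.86, 12.86 and 12.76 in the vehicle wells. The groups were 0.26 apart. The log2 level of Aldh1a2 fell by 0.36 (SE 0.049, 95% interval -0.48 to -0.25). The calls of Aldh1a1 and Aldh1a2 held when any 1 array was left out, with log2 fold changes of -0.43 to -0.37 and of -0.40 to -0.35.

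Aldh1a3, the third enzyme, had 10.00, 9.99 and 10.14 in the 4OHT wells, against 10.34, 10.26 and 10.32 in the vehicle wells. The highest 4OHT well lay 0.12 below the lowest vehicle well. The log2 level of Aldh1a3 fell by 0.26 (SE 0.057, 95% interval -0.40 to -0.12), and its interval overlapped those of Aldh1a1 and Aldh1a2. Its call was lost without vehicle replicate 1 (adjusted p = 0.0981), 2 (0.072) or 3 (0.0829) and without 4OHT replicate 1 (0.106) or 2 (0.113), and held without 4OHT replicate 3 (0.0197), while its direction stayed the same throughout.

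The genes nearest in profile to each of the 3 enzymes are given as a description. Nearness depends largely on the size of the log2 fold change, which differed between the enzymes, so nothing is read from the differing names. The nearest genes were Hcar1, Nt5e and Rspo1 for Aldh1a1, at root mean square differences of 0.0142, 0.0155 and 0.022. For Aldh1a2 they were Cd59a, Crym and Cdc42ep1 (0.0202, 0.0211 and 0.0212), and for Aldh1a3 Qsox1, Tll1 and Smad7 (0.0162, 0.0187 and 0.0198).

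Mesothelial cells, which line the lung and are known for Aldh1a2, were checked with 10 markers. 4 of the 10 were called lower and 1 higher, against 6.62% and 5.38% of all genes, and their mean level ranged from 10.08 to 10.15 in the 4OHT arrays and from 10.26 to 10.29 in the vehicle arrays. Lrrn4 fell by 0.54, Upk3b by 0.41, Krt8 by 0.33 and Krt7 by 0.28 on the log2 scale, whereas Msln rose by 0.30 and Wt1, a defining transcription factor of the mesothelium, had a log2 fold change of 0.02. The lowest marker of the list was Muc16, below the median level of all genes, with 6.07 to 6.48 in 4OHT wells and 6.64 to 7.00 in vehicle wells. When any 1 array was left out, 3 markers were called lower, and without 4OHT replicate 1 or 2 Msln was not called. Of 8 markers of smooth muscle and pericytes, 5 were called lower (6.62% of all genes), with a mean level of 11.70 to 11.76 in the 4OHT arrays and 12.11 to 12.14 in the vehicle arrays. Of 9 markers of dividing cells, 8 were called lower (6.62% of all genes), with a mean level of 8.74 to 8.85 in the 4OHT arrays and 9.94 to 10.02 in the vehicle arrays. The part of any of these in the retinoid results was not tested, and fewer cells of a type and less RNA per cell cannot be told apart in cultures measured whole.

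Epithelial, macrophage and endothelial markers lay lower on the scale on average. The mean of 9 epithelial markers was 6.20 to 6.27 in the 4OHT arrays and 6.25 to 6.28 in the vehicle arrays, and none of them was called by limma, with 1 at an unadjusted p under 0.05 and lower. The 9 macrophage markers averaged 7.17 to 7.27 in the 4OHT arrays and 7.17 to 7.24 in the vehicle arrays. Of these, 1 was called higher and 1 lower, against 5.38% and 6.62% of all genes. The higher one was Cd68, with means of 9.19 in 4OHT wells and 8.71 in vehicle wells. Lyz2 was the lower one, with 10.03 and 10.27, and both lay above the median level of all genes. The 8 endothelial markers averaged 6.59 to 6.65 in the 4OHT arrays and 6.74 to 6.86 in the vehicle arrays. Of these, 2 were called higher and 3 lower, against 5.38% and 6.62% of all genes. Cdh5 had a log2 fold change of -0.95, Emcn of -0.92 and Pecam1 of -0.36, whereas Tek had 0.42 and Kdr 0.21.

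Of the receptors, Rara, the form expressed in most tissues, had 9.53, 9.57 and 9.57 in the 4OHT wells, against 9.66, 9.58 and 9.63 in the vehicle wells. The groups were 0.01 apart, which is less than the SD of either. The log2 fold change of Rara was -0.07 (SE 0.044, 95% interval -0.17 to 0.04).

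Rarb, whose start region with the DR5 element is printed above, had 7.34, 7.42 and 7.42 in the 4OHT wells, against 6.99, 7.27 and 7.07 in the vehicle wells. The lowest 4OHT well lay 0.07 above the highest vehicle well, and the vehicle wells were more spread (SD 0.15) than the 4OHT wells (SD 0.04). The log2 fold change was 0.28 (SE 0.078, 95% interval 0.09 to 0.47), and Rarb was not called (adjusted p = 0.0673). It passed without vehicle replicate 2 (adjusted p = 0.0263, log2 fold change 0.36) and with eBayes set to trend and robust (adjusted p = 0.0397), and it did not pass in the other alternatives that kept it. Its level lay below the median of all genes.

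The rest of the retinoid pathway was read from 4 further lists of genes. Calls went both ways among the enzymes and the responsive genes, while the few among carriers and among receptors were all higher. Dhrs3 and Cyp26b1 stand in the list of enzymes and in that of retinoic acid responsive genes, and Rarg and Nrip1 in the list of receptors and in that of responsive genes, so the lists are not independent.

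Among 32 enzymes that store, oxidise, reduce or degrade retinoids, 4 were called higher and 5 lower, against 5.38% and 6.62% of all genes, with a median log2 fold change of 0.02. Rdh10, the main retinol dehydrogenase of the embryo, had 9.10, 9.04 and 9.08 in the 4OHT wells, against 9.33, 9.35 and 9.52 in the vehicle wells, without overlap. Its log2 level fell by 0.33 (SE 0.062, adjusted p = 0.0196). The call did not hold when 4OHT replicate 1 (adjusted p = 0.0582), 2 (0.0779) or 3 (0.051) was left out.

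Adh1 and Adh7, alcohol dehydrogenases that also oxidise retinol, were higher in all 4OHT wells. Adh1 had 8.66, 8.82 and 8.99 in 4OHT wells, against 8.14, 7.94 and 8.23 in vehicle wells, and rose 1.65-fold (log2 fold change 0.72, SE 0.105, adjusted p = 0.00743). The log2 level of Adh7 rose by 0.52 (SE 0.083, adjusted p = 0.0104). With the mean of its probe sets in place of the brightest one, the log2 level of Adh1 rose by 0.40 (adjusted p = 0.016). The calls of both genes held when any 1 array was left out.

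Dhrs3, a retinaldehyde reductase that retinoic acid itself induces, had 11.21, 11.31 and 11.35 in the 4OHT wells, against 10.80, 10.88 and 10.80 in the vehicle wells. The groups were clearly apart, and Dhrs3 rose 1.37-fold (log2 fold change 0.46, SE 0.054, adjusted p = 0.00321). Rdh11, a further retinaldehyde reductase, rose by 0.36 on the log2 scale (adjusted p = 0.00696). Dhrs4, also known as a retinaldehyde reductase, fell by 0.28 (adjusted p = 0.0207), and Rdh5, a dehydrogenase known from the visual cycle, fell by 0.26 (adjusted p = 0.0303). Dhrs4 and Rdh5 were named after their values were seen, to complete the count. The call of Dhrs4 did not survive leaving out vehicle array 1 or 3, or 4OHT array 1 or 2 (adjusted p 0.0613 to 0.0781), and that of Rdh5 without any array but 4OHT replicate 1 (adjusted p 0.0681 to 0.109).

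Cyp26b1, which degrades retinoic acid, had 8.23, 8.43 and 8.45 in the 4OHT wells, against 8.67, 8.78 and 8.97 in the vehicle wells. The groups did not overlap, and its log2 level fell by 0.44 (SE 0.095, adjusted p = 0.0303). That call held without vehicle replicate 1 (adjusted p = 0.036) and was lost without any other array (adjusted p 0.0535 to 0.0879). The related genes Cyp26a1 and Cyp26c1 had log2 fold changes of 0.04 and -0.05 and were not called. Aox1, an aldehyde oxidase able to act on retinaldehyde, fell by 0.31 (adjusted p = 0.00543). Lrat, which esterifies retinol for storage, had a difference of 0.15 in log2 level (adjusted p = 0.132) at a level near 6, low on the scale.

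**Figure D2:**
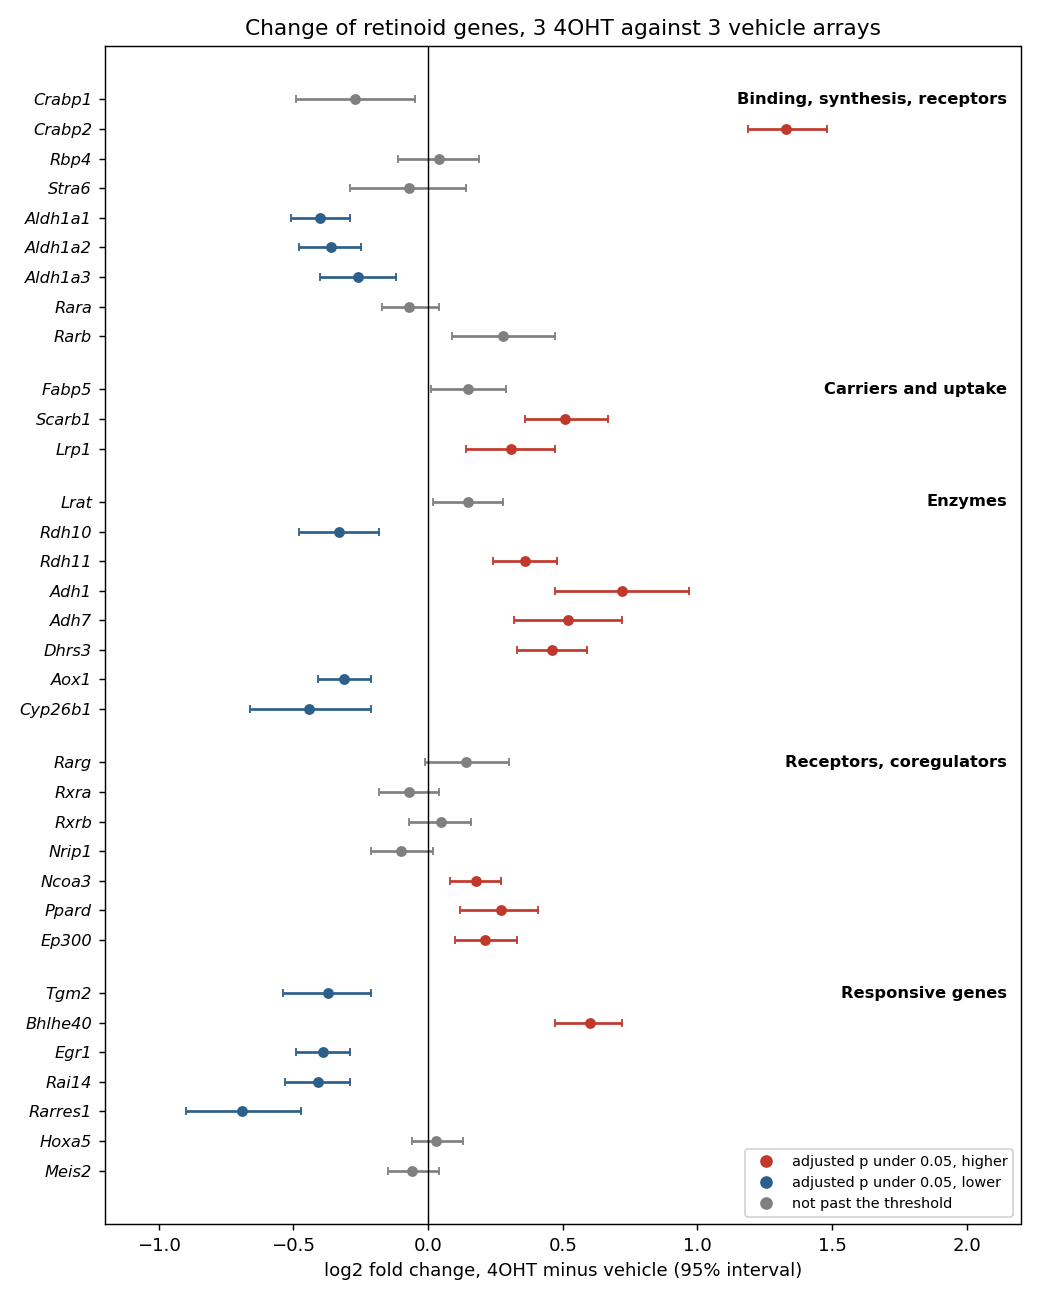
Log2 fold change (4OHT minus vehicle, horizontal axis) with its 95% interval for the 9 retinoid genes and for 25 other retinoid genes named by rule, in blocks by role; red marks genes called higher, blue genes called lower and grey genes not called. Crabp2 stands alone at 1.33, and within the enzymes Adh1, Adh7, Dhrs3 and Rdh11 lie right of 0 while Rdh10, Aox1 and Cyp26b1 lie left of it. The enzymes Dhrs4 and Rdh5 and the responsive gene Hoxa3, also called lower, were named beyond the rule and are not drawn.

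Of 11 measured carriers and uptake genes, 2 were called higher and none lower by limma, against 5.38% and 6.62% of all genes, with 3 higher and none lower at an unadjusted p under 0.05, and the median log2 fold change was -0.04. Scarb1, a lipoprotein receptor that also takes up carotenoids, had 10.81, 10.83 and 10.86 in the 4OHT wells, against 10.29, 10.22 and 10.45 in the vehicle wells. It rose 1.43-fold (log2 fold change 0.51, SE 0.066, adjusted p = 0.00454). Lrp1, a receptor for lipoprotein remnants that hold retinyl esters, rose by 0.31 (adjusted p = 0.0362), a call that held without 4OHT replicate 3 (adjusted p = 0.012) and was lost without any other array (adjusted p 0.079 to 0.124). Fabp5, which carries retinoic acid to PPAR-delta, differed by 0.15 in log2 level (adjusted p = 0.152).

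Of 18 measured receptors, partners and coregulators, 3 were called higher and none lower by limma, against 5.38% and 6.62% of all genes, with 6 higher and 2 lower at an unadjusted p under 0.05, and the median was 0.00. Rarg, the third retinoic acid receptor, differed by 0.14 in log2 level (adjusted p = 0.222). Its dimer partners Rxra and Rxrb had log2 fold changes of -0.07 and 0.05, with adjusted p of 0.426 and 0.616. Ncoa3, a coactivator, rose by 0.18 on the log2 scale (adjusted p = 0.0323), Ppard, the nuclear receptor PPAR-delta, by 0.27 (0.0334) and Ep300, a histone acetyltransferase, by 0.21 (0.0356). The call of Ncoa3 was lost without any 1 array (adjusted p 0.059 to 0.109). The calls of Ppard and Ep300 held only without 4OHT replicate 3, so that none of the 18 was called when any of the other 5 arrays was left out, with 5 to 7 at an unadjusted p under 0.05. Nrip1, a corepressor that retinoic acid induces in several cell types, had a log2 fold change of -0.10.

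Of 35 measured genes widely described as responsive to retinoic acid, other than the 9, 2 were called higher and 6 lower, against 5.38% and 6.62% of all genes, with a median log2 fold change of -0.04. The 2 higher were Dhrs3 and Bhlhe40, a transcriptional repressor also isolated as a retinoic acid responsive gene in mouse cells, which rose by 0.60 (SE 0.051, adjusted p = 0.00102). Rarres1, known as a gene induced by a synthetic retinoid in human skin, had 6.79, 6.60 and 6.91 in the 4OHT wells, against 7.46, 7.54 and 7.35 in the vehicle wells. It was lower in every 4OHT well and fell by 0.69 (SE 0.090, adjusted p = 0.005). Tgm2, the transglutaminase used as a marker of retinoic acid action, had 11.95, 12.07 and 12.21 in the 4OHT wells, against 12.48, 12.43 and 12.44 in the vehicle wells. It fell by 0.37 (SE 0.069, adjusted p = 0.0179), a call lost on leaving out any vehicle array or 4OHT replicate 2 (adjusted p 0.0514 to 0.069). The other genes called lower were Rai14, an actin-associated ankyrin repeat protein gene (log2 fold change -0.41, adjusted p = 0.00439), the early growth response gene Egr1 (-0.39, adjusted p = 0.00196), Cyp26b1 and, named after its value was seen, Hoxa3 (-0.26), a call that was lost on leaving out vehicle array 1 or 2, or 4OHT array 1 or 2 (adjusted p 0.0636 to 0.0848). The homeobox genes Hoxa5 and Meis2 had log2 fold changes of 0.03 and -0.06. The count of responsive genes called lower was 3 without vehicle replicate 2 or 4OHT replicate 2.

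**Figure D3:**
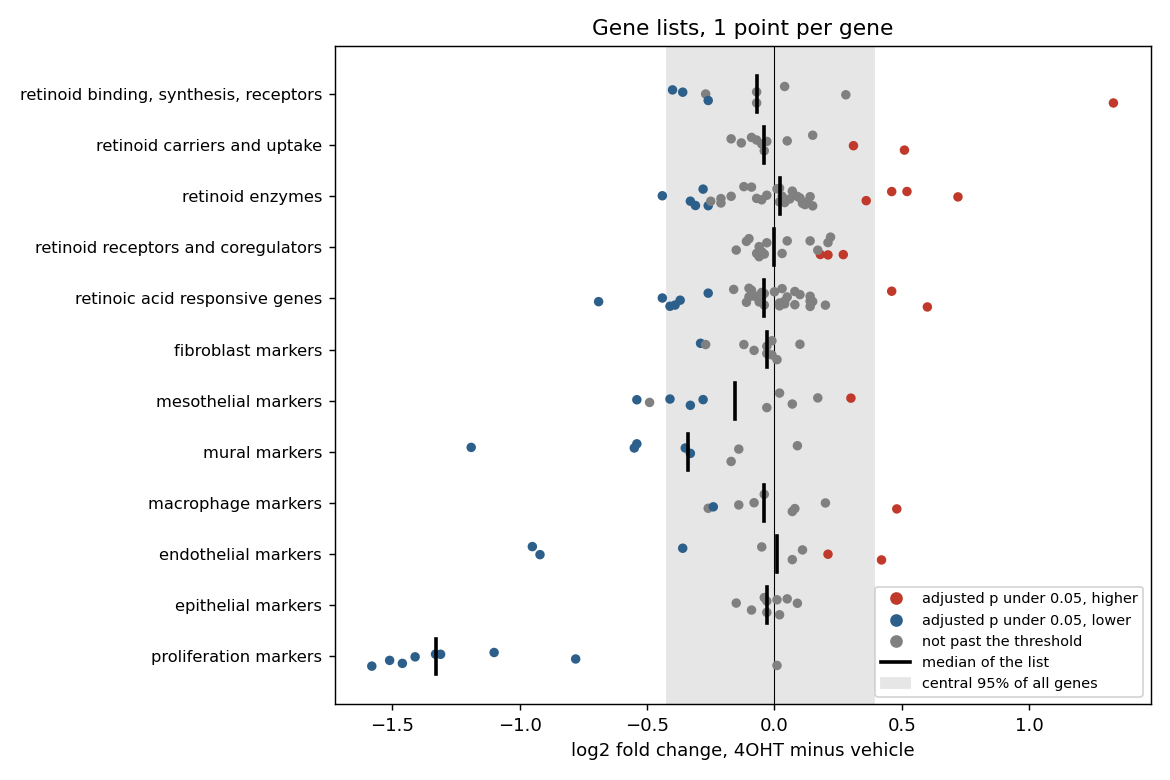
Log2 fold change (4OHT minus vehicle, horizontal axis) of each gene (points) in the retinoid lists and the marker lists, with the median of each list as a black bar and the central 95% of all genes (-0.42 to 0.39) shaded. Of the 9 retinoid genes, only Crabp2 lies outside the shaded range, at 1.33. In the other retinoid lists, Adh1, Adh7, Dhrs3, Scarb1 and Bhlhe40 lie right of it, and Cyp26b1 and Rarres1 lie left of it. The medians of the 5 retinoid lists lie between -0.07 and 0.02, and 8 of the 9 markers of dividing cells lie left of the shaded range.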

How the data were processed

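Total RNA from 6 wells of lung fibroblasts (3 4OHT, 3 vehicle) was labelled from 100 ng with an oligo(T) primer and biotin, per the labels' protocols. The deposited values are log2 expression per probe set from RMA, which the submitters' processing notes name with oligo and limma without versions; RMA removes shifts common to all genes. No coordinates depend on the array's genome build, not given in the sources used here. Depth does not apply to arrays, and their number limits the precision.

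Of 41345 probe sets, 23521 with 1 gene symbol were used, 1814 had several symbols and 16010 none. The brightest probe set stood for each of 22180 genes, with no filter on dim genes. Groups were compared with limma 3.58.1 in R 4.3.3 (lmFit and eBayes, two-sided, Benjamini-Hochberg over all genes), as tested on simulated data. Intervals use 6.70 degrees of freedom. Alternatives were the replicate block, centring, a second quantile normalization, a level filter, the mean of probe sets, eBayes with trend and robust options, weights per array, all probe sets, a stricter threshold and leaving out each array.

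The members, lists and tests were chosen with earlier results of these data known. The text names the 9 genes, Gli1, Ptch1, Smo, fixed pathway genes, called genes of each retinoid list (6 of smallest p where more were called), and for each of the 9 the 3 nearest profiles. Markers and Cyp26a1, Cyp26c1, Dhrs4, Rdh5 and Hoxa3 were named beyond this rule. Sequences are from RefSeq, GRCm38.p6, where 7 of the 9 genes matched.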

Additional observations from a re-analysis of the deposited data

How the results depend on the processing

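Over all genes, 2662 calls became 1568 with the replicate block, 4123 with eBayes set to trend and robust, 1010 at an adjusted p under 0.01, and 1220 to 2326 when 1 array was left out. With only genes above the median level, 3884 of 11090 genes were called, and each list held fewer genes. Calls among the 9 retinoid genes numbered 3 with the block, 6 with eBayes set to trend and robust and 3 to 4 when 1 array was left out. Above the median level, 5 of the 6 retinoid genes kept were called. Calls among carriers were 1 with the block, 1 at an adjusted p under 0.01 and 1 to 2 without 1 array. Calls among enzymes were 11 with trend and robust, 11 of 17 among genes above the median level, 4 at an adjusted p under 0.01 and 5 to 8 without 1 array. Calls among receptors and coregulators were 0 by limma with the block (8 at an unadjusted p under 0.05) and 0 at an adjusted p under 0.01 (8 at an unadjusted p under 0.05). They were 7 of 16 among genes above the median level, 7 with trend and robust, 5 with array weights and 0 to 5 without 1 array. Calls among responsive genes were 11 with trend and robust, 10 of 24 among genes above the median level, 5 at an adjusted p under 0.01 and 5 to 7 without 1 array. When 1 array was left out, the log2 fold change of Rbp4 ranged from -0.002 (without 4OHT replicate 2) to 0.101 and that of Stra6 from -0.158 to 0.004 (without vehicle replicate 1), which changed their signs; neither gene was called in any setting. The causes were not tested, beyond fewer arrays or a stricter threshold where the setting itself means that.

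Same-numbered wells showed little shared deviation: their deviations from the group means correlated at 0.062, -0.024 and 0.043. The labels do not say whether equal numbers share an origin, and these correlations cannot exclude it. With the block, Aldh1a3 (adjusted p = 0.0652), Gli1 (0.056), Tgm2 (0.0519), Lrp1 (0.0653), Ncoa3 (0.0991), Ppard (0.0977), Ep300 (0.0904), Dhrs4 (0.0524), Rdh5 (0.0713) and Hoxa3 (0.0717) were not called, and mesothelial markers had 3 calls. Not every well correlated best with its own number. Dim genes such as Gli1, Rbp4, Stra6, Rarb and Lrat are limited by signal over background, for which no detection call was used here.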
